A study of Danio rerio with 3 samples.

Results

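Translation initiation factors are the proteins that bring the initiator tRNA, the small ribosomal subunit and a capped mRNA together at a start codon. The genes described here are those whose symbol in the deposited table begins with eif and a digit. There were 64 of them among the 25386 genes with values (26437 rows in all), every one had a value, and every one passed the filter of a mean of at least 1 FPKM (fragments counted on a transcript, divided by its length and by library size) over the libraries. All 64 gene IDs are typed protein coding in RefSeq, and 63 carry the same symbol there. The label fits the members with a qualification: the rule also takes in regulators (the eif2ak kinases, the eif4ebp proteins and eif4enif1) and a few proteins that share only the name or a domain.

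RNA was sequenced from whole zebrafish embryos of the AB strain, with 3 libraries and 1 per group. A first group was maternal-zygotic (MZ) nup85-/-;nup133-/- embryos at 7 hours post fertilization (hpf), labelled dome (a late blastula stage in which yolk pushes up under the cells). Another was MZ nup85-/-;nup133-/- embryos at 4.3 hpf, labelled 1k. The last was wild-type embryos at 4.3 hpf, labelled dome. Maternal-zygotic mutants lack both the maternal supply of a gene product and the embryo's own; nup85 and nup133 encode subunits of the nuclear pore scaffold. The sources used here name neither the alleles nor how many embryos were pooled. At 4.3 hpf genotype and stage label differ together and cannot be told apart; at dome, genotype and age differ together.

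Initiation runs through a fixed series of complexes. eIF2 carries the initiator tRNA and is recharged by eIF2B, while kinases that phosphorylate its alpha subunit slow this step. eIF1, eIF1A, eIF3 and eIF5 act on the small subunit, and eIF4F, made of the cap-binding eIF4E, the scaffold eIF4G and the helicase eIF4A, brings in the mRNA, with 4E-BP proteins competing for eIF4E. A fish egg is loaded with maternal mRNA for these factors, and the early embryo translates before its own genome is transcribed.

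FPKM summed to 431333 in the MZ 7 hpf library, 397357 in the MZ 4.3 hpf library and 424486 in wild type. No counts are given, so absolute depth is unknown, and ratios of low values between the 3 pairs of libraries peaked at 0.99 to 1.05. The 8 zygotic marker genes looked up ranged over 35.2 to 759 FPKM in the MZ 7 hpf library, 0.02 to 3.77 in the MZ 4.3 hpf library and 10.4 to 76.8 in wild type. The 6 maternal marker genes summed to 270, 1542 and 815 FPKM in the MZ 7 hpf, MZ 4.3 hpf and wild-type libraries. The mutant libraries thus stood on opposite sides of wild type for each zygotic marker and for the maternal sum. Among the maternal markers dazl alone went the other way at MZ 7 hpf, at 13.6 FPKM against 10.9 in wild type. The part of this in the values below was not tested. The mutated gene nup133 stood at 1.91, 0.31 and 11.7 FPKM in the MZ 7 hpf, MZ 4.3 hpf and wild-type libraries, and nup85 at 9.55, 10.3 and 13.2, within 2-fold of wild type. Each group has 1 library, so no difference could be checked against replicates or tested and no error can be given. The differences below describe these libraries. In whole embryos, fewer cells holding a transcript and less of it per cell cannot be told apart. FPKM is a share of the library, so a lower value need not be a loss of RNA.

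The initiation factor genes were abundant, and most of them differed little between libraries. Their median level was 45.5 FPKM in the MZ 7 hpf library, 41.9 in the MZ 4.3 hpf library and 43.0 in wild type, where the medians of all 14306 genes tested were 9.44, 12.4 and 9.58. Together they held 1.08% of the FPKM of the MZ 7 hpf library, 0.909% of the MZ 4.3 hpf library and 1.04% of the wild-type library. Of the 64, 43 stayed within 2-fold in every pair of libraries and 21 (32.8%) did not, against 50.7% of all genes tested. All genes include many at low levels, so the 4236 genes with means between the quartiles of the members (20.1 to 96.0 FPKM) were also set beside them, a choice made after the values were seen. Within 2-fold were 84.4% of the members and 84.7% of those genes for MZ 4.3 hpf over wild type, 78.1% and 79.0% for MZ 7 hpf over wild type, and 79.7% and 71.8% for MZ 7 hpf over MZ 4.3 hpf. In the pairs with wild type the shares of the members and of these genes of like level were close. All 64 members were counted, including those with means outside 20.1 to 96.0 FPKM, so the levels of the 2 sets match only in part. Differences here are log2 ratios of FPKM + 1, and the count of a side is of genes at least 2-fold apart on that scale.

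**Figure D1:**
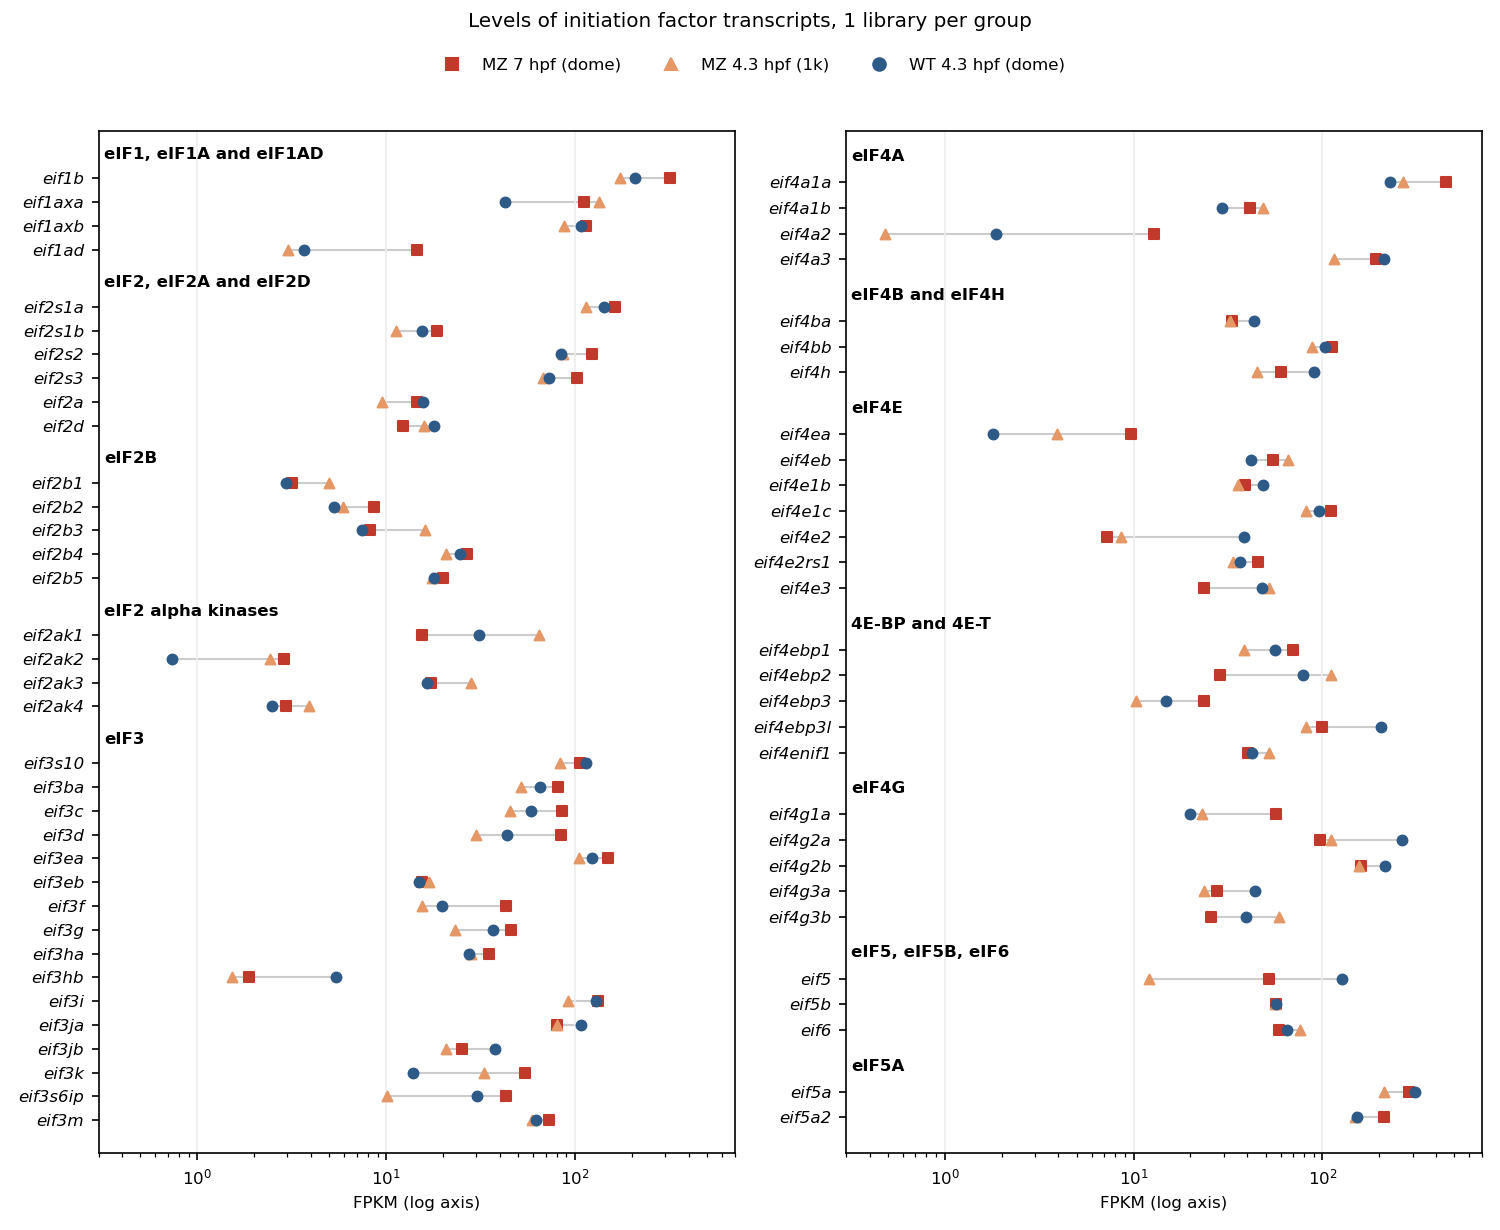
FPKM of each of the 64 initiation factor genes on a log axis, grouped by factor, with 1 symbol per library (square, MZ 7 hpf; triangle, MZ 4.3 hpf; circle, wild type 4.3 hpf). The most abundant are eif4a1a, eif5a and eif1b, with means of 316, 269 and 233 FPKM, and the widest spread is that of eif4a2, from 0.48 to 12.8 FPKM.

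Against wild type at the same clock age, the MZ 4.3 hpf library had 4 members at least 2-fold higher and 6 lower, where 16.6% of all genes were higher and 9.6% lower. The higher ones were eif1axa, eif3k, eif2ak1 and eif2b3, and the lower ones eif5, eif4e2, eif3s6ip, eif3hb, eif4ebp3l and eif4g2a. The 4 higher are 6.25% of the members and the 6 lower 9.38%, where 9.07% of the genes of like level were higher and 6.28% lower. The median log2 ratio of the members was -0.23, with 42 of 64 below 0, that of all genes was 0.16 and that of genes of like level 0.07. Scaled by the median of ratios, 2 were higher and 10 lower, so that higher members made up 16.7% of those past 2-fold in place of 40.0%.

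Against wild type at the same stage label, the MZ 7 hpf library had 8 members at least 2-fold higher and 6 lower, where 13.9% of all genes were higher and 12.5% lower. Those higher were eif4a2, eif4ea, eif3k, eif1ad, eif4g1a, eif1axa, eif2ak2 and eif3f. Those lower were eif4e2, eif4g2a, eif4ebp2, eif5, eif3hb and eif4ebp3l. The 8 higher are 12.5% of the members and the 6 lower 9.38%, where 7.18% of the genes of like level were higher and 13.8% lower. The median log2 ratio was 0.14 for the members, -0.05 for all genes and -0.19 for genes of like level. Scaled so that proteasome genes were level, 5 were higher and 10 lower (33.3% higher in place of 57.1%), and the median became -0.23.

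Between the mutant libraries, 9 members were at least 2-fold higher at 7 hpf and 4 lower, where 13.8% of all genes were higher and 22.2% lower. The 9 higher were eif4a2, eif5, eif3s6ip, eif1ad, eif3d, eif3f, eif4g1a, eif4ebp3 and eif4ea, 14.1% of the members. The 4 lower, 6.25% of the members, were eif2ak1, eif4ebp2, eif4g3b and eif4e3. Of the genes of like level, 7.25% were higher and 21.0% lower. The median was 0.36 for the members, -0.21 for all genes and -0.17 for genes of like level. Scaling moved the split: 13 higher and 3 lower (81.3% higher in place of 69.2%) by the median of ratios, and 4 higher and 6 lower (40.0%) on proteasome genes, where the median was -0.10. The proteasome scaling moved the median of all genes by more than 0.1, to -0.40 against wild type and to -0.62 between the mutants, and that by the median of ratios moved it to 0.02 at 4.3 hpf and to -0.07 between the mutants. Scaling to equal sums moved it to -0.32 between the mutants. Set against the median of all genes under the same scaling, the members stood 0.38 to 0.41 lower at MZ 4.3 hpf than in wild type, 0.17 to 0.19 higher at MZ 7 hpf than in wild type, and 0.52 to 0.59 higher at 7 hpf than at 4.3 hpf between the mutants. A scaling changes the members and all genes of a library by the same factor. These narrow ranges therefore follow from the method and are no separate support. Set against the median of the genes of like level, on values as deposited, the medians of the members differed by -0.30 for MZ 4.3 hpf over wild type, 0.33 for MZ 7 hpf over wild type and 0.53 between the mutants. These 3 comparisons share libraries pairwise, so they are not separate evidence. The ribosomal protein genes, 80 in number, had medians of -0.64 for MZ 4.3 hpf over wild type, 0.55 for MZ 7 hpf over wild type and 1.14 between the mutants.

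Counts at other thresholds are set beside the shares of all genes. At 1.5-fold, 10 members were higher and 13 lower in MZ 4.3 hpf over wild type (30.7% and 17.5% of all genes), 13 higher and 10 lower in MZ 7 hpf over wild type (23.9% and 26%), and 18 higher and 6 lower between the mutants (19.1% and 35%). At 4-fold, 0 were higher and 2 lower in MZ 4.3 hpf over wild type (2.48% and 3.4% of all genes), 1 higher and 1 lower in MZ 7 hpf over wild type (4.17% and 1.35%), and 2 higher and 0 lower between the mutants (7.52% and 4.68%).

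**Figure D2:**
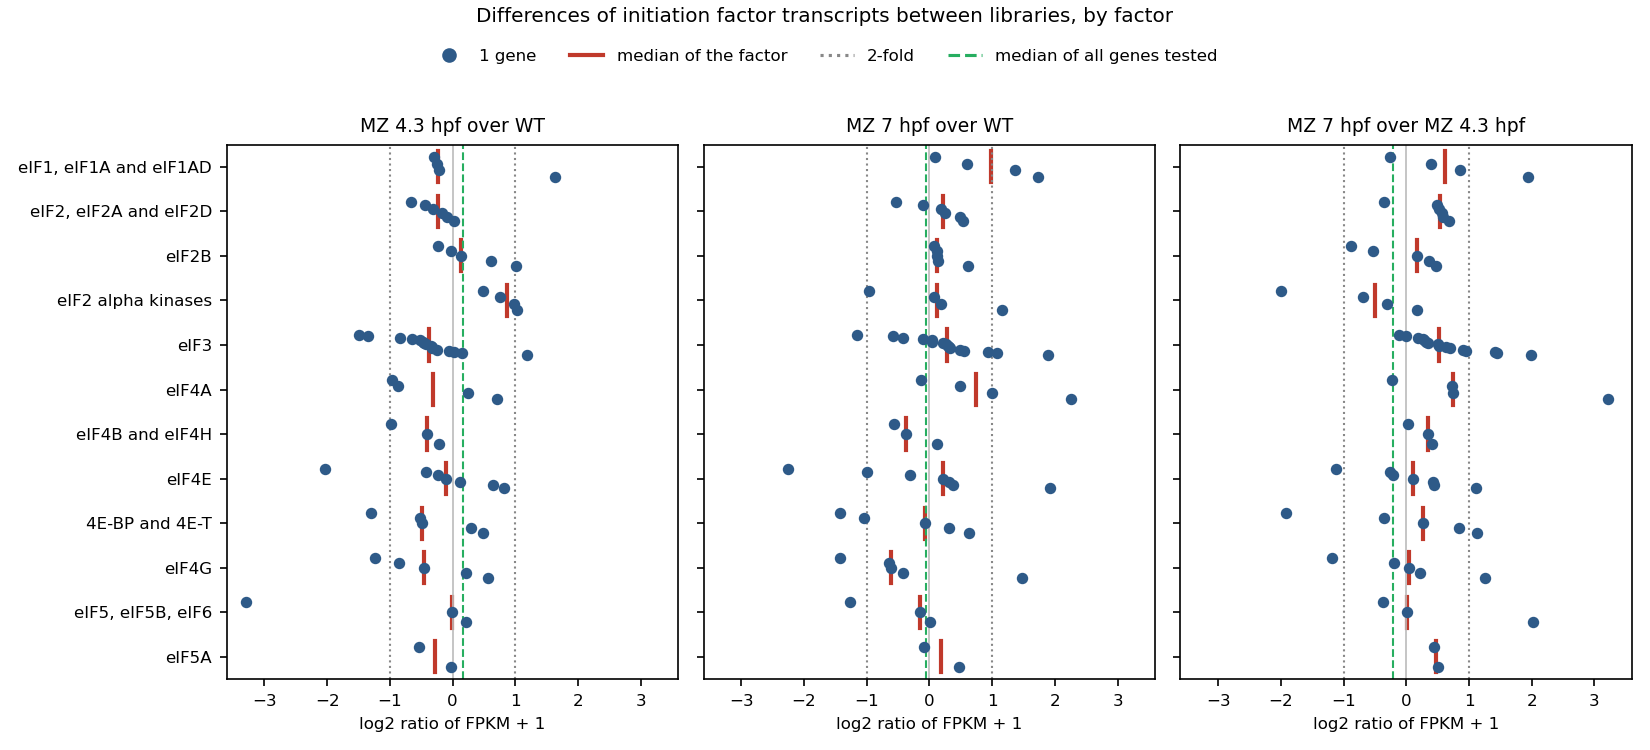
Log2 ratios of FPKM + 1 for the 64 genes, by factor, in the 3 pairs of libraries, with the median of each factor (red bar), the 2-fold limits (dotted) and the median of all 14306 genes tested (green dashes). Most genes lie between the dotted lines, the 16 eIF3 genes sit mostly left of 0 in the MZ 4.3 hpf library against wild type, and eif5 lies far to the left there at -3.30.

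The factors that scan for the start codon differed by copy. The gene listed as eif1b (gene 322237, called eif1 in RefSeq), whose product guards start codon selection, stood at 317 FPKM in the MZ 7 hpf library, 174 in the MZ 4.3 hpf library and 208 in wild type. The gene that RefSeq calls eif1b is listed under another symbol, zgc:56676, and falls outside the rule; it stood at 592, 521 and 985 FPKM in the MZ 7 hpf, MZ 4.3 hpf and wild-type libraries, above every member. Of the summed eIF1 transcripts it made up 65.2%, 75.0% and 82.6% in that order.

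eIF1A, which helps the small subunit scan, is encoded by a pair of copies. The copy eif1axa stood at 111 FPKM at MZ 7 hpf and 134 at MZ 4.3 hpf, against 42.6 in wild type, with log2 ratios to wild type of 1.37 and 1.63 for MZ 7 hpf and MZ 4.3 hpf. Scaled on proteasome genes, the ratio for MZ 7 hpf was 0.96, just under 2-fold. The other copy, eif1axb, stood at 114, 87.0 and 108 FPKM in the MZ 7 hpf, MZ 4.3 hpf and wild-type libraries. Both mutant libraries were therefore high in the a copy only: its share of the pair was 49.4% at MZ 7 hpf and 60.6% at MZ 4.3 hpf, against 28.4% in wild type. eif1ad, whose product has an eIF1A-like domain, stood at 14.5 FPKM in the MZ 7 hpf library, 3.03 in the MZ 4.3 hpf library and 3.66 in wild type, so it was high in the later mutant library alone.

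The subunits of eIF2 stayed within 2-fold in every pair. The alpha subunit gene eif2s1a stood at 162 FPKM in the MZ 7 hpf library, 115 in the MZ 4.3 hpf library and 143 in wild type, and its copy eif2s1b at 18.6, 11.2 and 15.5, which kept the a copy at 89.7%, 91.1% and 90.2% of the pair. The beta subunit gene eif2s2 stood at 124, 86.0 and 84.5 FPKM and the gamma subunit gene eif2s3 at 102, 67.8 and 72.6 in the same libraries. All of these subunit genes were highest in the MZ 7 hpf library as deposited; eif2s1a and eif2s1b stood below wild type in that library when proteasome genes were made level. Initiator tRNA can also be delivered without eIF2, and the genes for 2 proteins studied for this, eif2a and eif2d, stood at 14.5 and 12.2 FPKM at MZ 7 hpf, 9.49 and 15.9 at MZ 4.3 hpf and 15.7 and 18.02 in wild type.

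eIF2B, the exchange factor that recharges eIF2, had genes at lower levels than the leading eIF2 subunit genes. Its catalytic epsilon subunit gene eif2b5 stood at 19.9, 17.6 and 17.9 FPKM in the MZ 7 hpf, MZ 4.3 hpf and wild-type libraries, and the delta subunit gene eif2b4, the most abundant, at 26.9, 20.7 and 24.5. The alpha and beta subunit genes eif2b1 and eif2b2 ranged over 2.95 to 8.65 FPKM. The gamma subunit gene eif2b3 stood at 8.22 FPKM in the MZ 7 hpf library, 16.0 in the MZ 4.3 hpf library and 7.44 in wild type. Its log2 ratio at 4.3 hpf was 1.01, and it was under 2-fold with a pseudocount of 5 (0.75) and when scaled by the median of ratios (0.86).

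All 4 kinase genes that act on eIF2 alpha stood higher at MZ 4.3 hpf than in wild type, with log2 ratios of 0.49 to 1.03 as deposited and 0.37 to 1.12 over the scalings, where 57.6% of all genes and 54.4% of genes of like level were higher. eif2ak1, which encodes the heme-regulated kinase, stood at 15.5 FPKM in the MZ 7 hpf library, 64.8 in the MZ 4.3 hpf library and 31.2 in wild type. Its log2 ratio was 1.03 for MZ 4.3 hpf over wild type, just past 2-fold (0.95 with a pseudocount of 5 and 0.87 by the median of ratios), and -2.00 for MZ 7 hpf over MZ 4.3 hpf. eif2ak3, which encodes PERK of the endoplasmic reticulum, stood at 17.2, 28.2 and 16.4 FPKM in the MZ 7 hpf, MZ 4.3 hpf and wild-type libraries. eif2ak4, which encodes the amino acid sensor GCN2, stood at 2.96, 3.89 and 2.48. eif2ak2, which encodes the RNA-activated kinase PKR, stood at 2.86 and 2.42 FPKM in the MZ 7 hpf and MZ 4.3 hpf libraries, against 0.73 in wild type. At these levels its ratio depends on the pseudocount: for MZ 4.3 hpf over wild type it was 0.98, and 1.60 and 0.37 with pseudocounts of 0.1 and 5; for MZ 7 hpf over wild type it was 1.16, and 0.46 with a pseudocount of 5 (0.90 scaled on proteasome genes). Of the summed kinase transcripts, eif2ak1 made up 40.2% in the MZ 7 hpf library, 65.2% in the MZ 4.3 hpf library and 61.4% in wild type, while eif2ak3 made up 44.7%, 28.4% and 32.3%.

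eIF3 is the largest initiation complex and organises the small subunit for the mRNA. Its 16 genes summed to 1054 FPKM in the MZ 7 hpf library, 694 in the MZ 4.3 hpf library and 889 in wild type. Most of them were lower at MZ 4.3 hpf than in wild type (13 of 16, median -0.38, where 42.2% of all genes were lower), and 12 to 14 were lower under the other scalings. In the MZ 7 hpf library 12 of 16 were higher than in wild type (median 0.29, where 47.4% of all genes were higher), but 5 of 16 after scaling on proteasome genes (median -0.11). Between the mutants 15 of 16 were higher at 7 hpf (median 0.52, where 39.9% of all genes were higher), or 9 to 16 under the other scalings. Past 2-fold were 1 higher and 2 lower of the 16 (6.25% and 12.5%) for MZ 4.3 hpf over wild type, against 16.6% and 9.6% of all genes. For MZ 7 hpf over wild type 2 were higher and 1 lower (12.5% and 6.25%, against 13.9% and 12.5%), and between the mutants 3 were higher and 0 lower (18.8% and 0%, against 13.8% and 22.2%).

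The core subunits eif3s10 (eIF3a), eif3ba (eIF3b) and eif3c, around which the complex is built, stayed within 2-fold. In the MZ 7 hpf, MZ 4.3 hpf and wild-type libraries eif3s10 stood at 106, 82.8 and 114 FPKM, eif3ba at 81.7, 52.1 and 65.6, and eif3c at 85.7, 45.5 and 58.2. The beta-propeller subunit eif3i and the RNA-binding subunit eif3g stood at 132, 91.9 and 128 FPKM and at 45.6, 23.1 and 36.7. eif3ea, the most abundant eIF3 gene on average, stood at 149, 104 and 123. All of these were lowest in the MZ 4.3 hpf library as deposited. Scaled on proteasome genes, eif3s10 was lowest at MZ 7 hpf, with a log2 ratio between the mutants of -0.12 in place of 0.35.

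Among the single-copy subunits, those at least 2-fold apart in some pair were eif3s6ip, eif3k, eif3d and eif3f. eif3s6ip, which encodes eIF3l, stood at 42.9 FPKM in the MZ 7 hpf library, 10.1 in the MZ 4.3 hpf library and 30.2 in wild type, with log2 ratios of -1.49 for MZ 4.3 hpf over wild type and 1.98 between the mutants. eif3k, which encodes the partner of eIF3l in the complex, stood the other way at MZ 4.3 hpf: 54.1 FPKM at MZ 7 hpf and 32.8 at MZ 4.3 hpf, against 13.8 in wild type (log2 ratios to wild type of 1.89 and 1.19). eif3d, whose product can bind caps in human cells, stood at 83.9, 30.0 and 43.7 FPKM in the MZ 7 hpf, MZ 4.3 hpf and wild-type libraries, and eif3f at 43.1, 15.5 and 19.8, with log2 ratios between the mutants of 1.45 and 1.42. Scaled on proteasome genes these became 0.99 and 0.96, and that of eif3f over wild type at 7 hpf became 0.69 in place of 1.08. The PCI-domain subunit eif3m was near level, at 72.6, 59.4 and 62.0 FPKM.

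In each pair of eIF3 copies the second copy was the lower one in every library. eif3eb ranged over 14.99 to 16.8 FPKM and made up 9.35% of the pair with eif3ea in the MZ 7 hpf library, 13.9% in the MZ 4.3 hpf library and 10.8% in wild type. eif3hb stood at 1.87 and 1.52 FPKM in the MZ 7 hpf and MZ 4.3 hpf libraries, against 5.42 in wild type, while eif3ha stood at 34.9 and 28.0 against 27.6. The share of eif3hb in that pair was 5.08% and 5.15% in the mutants and 16.4% in wild type; its log2 ratios to wild type, -1.16 and -1.35, were -0.60 and -0.68 with a pseudocount of 5, within 2-fold. The loosely bound subunit eIF3j is encoded by eif3ja, at 80.0 FPKM in the MZ 7 hpf library, 79.8 in the MZ 4.3 hpf library and 107 in wild type, and eif3jb, at 25.1, 20.8 and 37.9. Both were highest in wild type.

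The helicase eIF4A was carried by eif4a1a, the most abundant member on the mean of the libraries, at 452 FPKM in the MZ 7 hpf library, 268 in the MZ 4.3 hpf library and 227 in wild type. Its log2 ratio for MZ 7 hpf over wild type was 0.99, just short of 2-fold, and 0.59 scaled on proteasome genes. The copy eif4a1b stood at 41.5, 48.7 and 29.4 FPKM in the MZ 7 hpf, MZ 4.3 hpf and wild-type libraries. eif4a2 was far lower, at 12.8 FPKM in the MZ 7 hpf library, 0.48 in the MZ 4.3 hpf library and 1.88 in wild type. Its log2 ratios were 3.22 between the mutants and 2.26 for MZ 7 hpf over wild type. With a level of 0.48 FPKM the ratio between the mutants rests on the pseudocount, at 4.47 with 0.1 and 1.70 with 5. The gene made up 2.52%, 0.151% and 0.729% of the eIF4A transcripts. The sources used here do not say how reads shared by near-identical copies were divided, so the levels of the lower copies, here and in the other families, are uncertain. eif4a3, which belongs to the exon junction complex rather than to eIF4F, stood at 193, 115 and 212 FPKM.

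The cofactors that stimulate eIF4A were within 2-fold. In the MZ 7 hpf, MZ 4.3 hpf and wild-type libraries eif4bb stood at 112, 88.1 and 103 FPKM, eif4ba at 33.0, 32.3 and 43.3, and eif4h at 60.6, 45.3 and 90.3. The largest log2 ratio among them was that of eif4h, -0.98 for MZ 4.3 hpf over wild type, which was past 2-fold when scaled by the median of ratios.

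The cap-binding genes of the eIF4E1 class kept nearly the same sum as deposited. It was 215 FPKM in the MZ 7 hpf library, 187 in the MZ 4.3 hpf library and 188 in wild type. The largest part was eif4e1c at 111, 81.6 and 95.8 FPKM, or 52.0%, 43.6% and 50.9% of the sum. eif4e1b, the form known from the germ line of zebrafish, stood at 38.7, 35.8 and 48.4 FPKM, and eif4eb at 54.7, 66.0 and 42.0. eif4ea was the least abundant and differed most, at 9.67 FPKM in the MZ 7 hpf library, 3.94 in the MZ 4.3 hpf library and 1.80 in wild type. Its log2 ratio for MZ 7 hpf over wild type was 1.93, and between the mutants 1.11, which was 0.71 with a pseudocount of 5 and 0.70 scaled on proteasome genes.

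Among the genes of the other cap-binding classes, eif4e2 differed most. eif4e2 encodes 4EHP, a cap-binding protein that represses translation. It stood at 7.26 FPKM at MZ 7 hpf and 8.58 at MZ 4.3 hpf, against 38.3 in wild type, with log2 ratios of -2.25 and -2.03. Its related copy eif4e2rs1 stood at 45.4, 33.6 and 36.4 FPKM in the MZ 7 hpf, MZ 4.3 hpf and wild-type libraries. Low values in both mutant libraries thus belonged to 1 copy, whose share of the pair was 13.8% at MZ 7 hpf and 20.3% at MZ 4.3 hpf, against 51.2% in wild type. eif4e3 stood at 23.5 FPKM in the MZ 7 hpf library, 52.1 in the MZ 4.3 hpf library and 47.9 in wild type; its log2 ratio between the mutants was -1.12, or -0.96 by the median of ratios, and it was just short of 2-fold lower at MZ 7 hpf than in wild type.

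Genes of the 4E-BP proteins, which block eIF4E from binding eIF4G until mTOR phosphorylates them, split in direction. eif4ebp3l was the most abundant in wild type, at 99.1 FPKM at MZ 7 hpf and 82.3 at MZ 4.3 hpf, against 205 in wild type (log2 ratios of -1.04 and -1.30). eif4ebp2 stood at 28.5 FPKM in the MZ 7 hpf library, 111 in the MZ 4.3 hpf library and 78.6 in wild type, with -1.92 between the mutants and -1.43 for MZ 7 hpf over wild type. eif4ebp1 stood at 70.0, 38.6 and 56.0 FPKM and eif4ebp3 at 23.6, 10.3 and 14.9 in the MZ 7 hpf, MZ 4.3 hpf and wild-type libraries, so both were highest at MZ 7 hpf as deposited; scaled on proteasome genes, eif4ebp1 stood below wild type there, at -0.08 in place of 0.32. The log2 ratio of eif4ebp3 between the mutants, 1.13, was within 2-fold with a pseudocount of 5 (0.91) and on proteasome genes (0.68).

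The leading 4E-BP gene therefore differed between the mutants. In the MZ 7 hpf library eif4ebp3l had 44.8% of the 4E-BP transcripts and eif4ebp2 12.9%, in the MZ 4.3 hpf library eif4ebp3l had 34.0% and eif4ebp2 45.8%, and in wild type eif4ebp3l had 57.8% and eif4ebp2 22.2%. Their sum was 221 FPKM in the MZ 7 hpf library, 242 in the MZ 4.3 hpf library and 354 in wild type. eif4enif1, which encodes the eIF4E transporter 4E-T, was within 2-fold at 40.5, 52.3 and 42.5 FPKM.

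Among the scaffold genes of the eIF4G class, those for eIF4G1 and eIF4G3 kept nearly the same sum as deposited, but not their makeup. eif4g1a, eif4g3a and eif4g3b together stood at 110 FPKM in the MZ 7 hpf library, 106 in the MZ 4.3 hpf library and 103 in wild type. eif4g1a stood at 56.8 FPKM in the MZ 7 hpf library, 23.1 in the MZ 4.3 hpf library and 19.8 in wild type, so its share was 51.6% in the MZ 7 hpf library, 21.8% in the MZ 4.3 hpf library and 19.2% in wild type. Its log2 ratios were 1.47 for MZ 7 hpf over wild type and 1.26 between the mutants (0.80 on proteasome genes). eif4g3b stood at 25.6, 59.2 and 39.6 FPKM in the MZ 7 hpf, MZ 4.3 hpf and wild-type libraries, with -1.18 between the mutants, and led in the MZ 4.3 hpf library with 55.9% of the sum. eif4g3a stood at 27.6, 23.7 and 43.8 FPKM and led in wild type with 42.4%.

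eif4g2a and eif4g2b encode DAP5 (NAT1), an eIF4G-like protein that lacks the eIF4E-binding site. eif4g2a stood at 97.3 FPKM at MZ 7 hpf and 111 at MZ 4.3 hpf, against 264 in wild type (log2 ratios of -1.43 and -1.24), which made it the second most abundant member of the wild-type library. eif4g2b stood at 160, 156 and 214 FPKM. Both copies were highest in wild type, and the share of the a copy was 37.8% and 41.7% in the mutants at 7 and 4.3 hpf, against 55.3% in wild type.

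**Figure D3:**
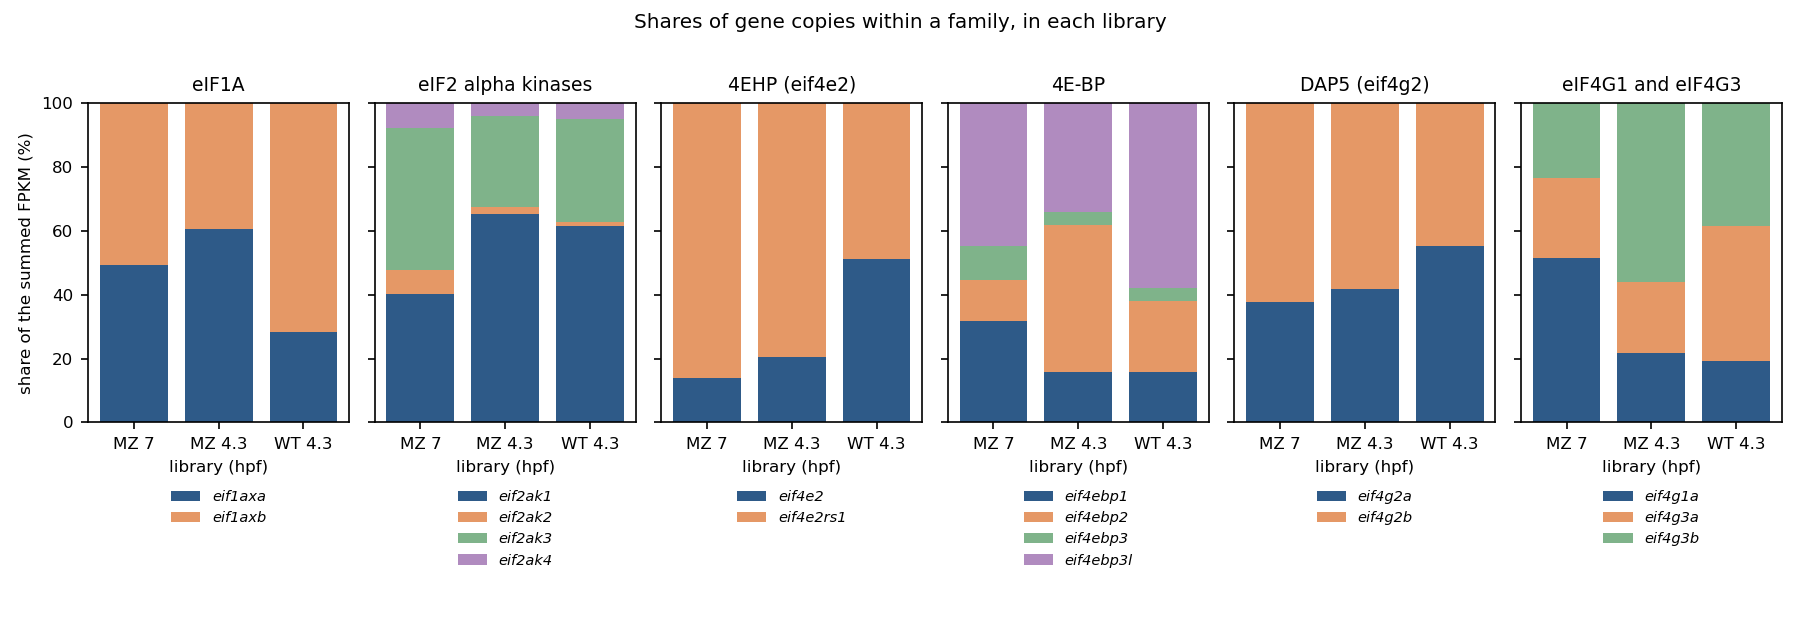
Share of each gene in the summed FPKM of its family (%), as stacked bars for the MZ 7 hpf, MZ 4.3 hpf and wild-type 4.3 hpf libraries, for the 6 families in which a share differed by at least 15 percentage points. eif1axa has 49.4%, 60.6% and 28.4% of the eIF1A pair, and eif4e2 has 13.8%, 20.3% and 51.2% of its pair.

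A share within a library does not depend on how the libraries are scaled. Of the 14 families compared, 6 had a share that differed by at least 15 percentage points between libraries: eIF1A, the eIF2 alpha kinases, eIF4E2, 4E-BP, eIF4G2 and the group of eIF4G1 and eIF4G3. In the other 8 the shares differed by at most 12.9 points, as in eIF4B, where eif4bb had 77.3%, 73.2% and 70.4% in the MZ 7 hpf, MZ 4.3 hpf and wild-type libraries.

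eif5 showed the largest single difference from wild type. It encodes the factor that makes eIF2 hydrolyse GTP once the start codon is found. It stood at 51.9 FPKM in the MZ 7 hpf library, 12.0 in the MZ 4.3 hpf library and 127 in wild type. The log2 ratios were -3.30 for MZ 4.3 hpf over wild type, -1.27 for MZ 7 hpf over wild type and 2.02 between the mutants, each past 2-fold. With eif4e2 it was 1 of the 2 members more than 4-fold below wild type at MZ 4.3 hpf as deposited. For eif4e2 this was borderline: its log2 ratio of -2.03 was -1.95 scaled to equal sums, -1.98 on proteasome genes and -1.67 with a pseudocount of 5, each within 4-fold. By contrast eif5b, whose product joins the ribosomal subunits, was level at 57.1, 56.3 and 56.6 FPKM, and eif6, whose product keeps them apart, stood at 58.7, 76.0 and 65.2 FPKM in the MZ 7 hpf, MZ 4.3 hpf and wild-type libraries.

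eIF5A carries hypusine, a modified lysine, and helps ribosomes through difficult peptide bonds; in zebrafish eggs it is found on dormant ribosomes. eif5a stood at 289 FPKM in the MZ 7 hpf library, 212 in the MZ 4.3 hpf library and 308 in wild type, and was the most abundant member of the wild-type library. eif5a2 stood at 211, 149 and 152 FPKM. Their log2 ratios stayed within 0.54 of 0, and eif5a had 57.8%, 58.7% and 67.0% of the pair.

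Other genes of the pathway were looked up from a list of 48, of which 45 matched a row with values and 44 passed the filter. Of the 44, 3 were at least 2-fold higher and 5 lower at MZ 4.3 hpf than in wild type (6.82% and 11.4%, against 16.6% and 9.6% of all genes). At MZ 7 hpf 5 were higher and 9 lower than in wild type (11.4% and 20.5%, against 13.9% and 12.5%), and between the mutants 5 were higher and 6 lower at 7 hpf (11.4% and 13.6%, against 13.8% and 22.2%). The median log2 ratios were -0.05, -0.10 and -0.01, where those of all genes were 0.16, -0.05 and -0.21. In all, 18 (40.9%) were 2-fold apart in some pair, against 50.7% of all genes.

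The genes furthest apart in the list were atf4a, atf4b and ppp1r15b, with log2 ratios between the mutants of 4.33, 3.90 and -3.09. atf4a and atf4b encode the transcription factor that is translated when eIF2 alpha is phosphorylated. atf4a stood at 74.7 FPKM in the MZ 7 hpf library, 2.77 in the MZ 4.3 hpf library and 20.8 in wild type, and atf4b at 32.9, 1.27 and 10.6. Both were thus highest at MZ 7 hpf and lowest at MZ 4.3 hpf, the order of the zygotic markers; the part of stage in this was not tested. ppp1r15b encodes a subunit of the phosphatase that removes that phosphate; of the 2 rows with that symbol, gene 100538163 stood at 5.31 FPKM in the MZ 7 hpf library, 52.7 in the MZ 4.3 hpf library and 35.6 in wild type. The other row, gene 571470, stood at 13.4, 37.0 and 24.6 FPKM, in the same order of libraries. gcn1, which encodes the activator of GCN2, stood at 8.80, 6.65 and 17.3 FPKM. Also on the list, impact stood at 6.91, 7.29 and 15.7 FPKM in these libraries, with log2 ratios to wild type of -1.08 at MZ 7 hpf and -1.01 at MZ 4.3 hpf.

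Of the genes for kinases that phosphorylate eIF4E, mknk1 and mknk2a were past 2-fold and mknk2b was within it in every pair, at 54.3, 86.8 and 57.3 FPKM in the MZ 7 hpf, MZ 4.3 hpf and wild-type libraries. In the same libraries mknk1 stood at 11.6, 89.5 and 46.4 FPKM, and mknk2a at 19.4, 114 and 40.9. The summed maternal markers ranked these 2 mutant libraries on the same sides of wild type. As deposited, so did eif2ak1, eif4ebp2, eif4g3b and eif4e3, and, within 2-fold in every pair, eif6 and eif4enif1, but no other member. For eif4e3 the log2 ratio for MZ 4.3 hpf over wild type was 0.12, and -0.04 by the median of ratios. More members stood the other way as deposited, above wild type at MZ 7 hpf and below it at MZ 4.3 hpf, as the zygotic markers did. Among them were eif4a2, eif3s6ip, eif3d, eif3f, eif1ad and eif4ebp3. As deposited, 41 of the 64 members were above wild type at MZ 7 hpf and 22 at MZ 4.3 hpf, where 47.4% and 57.6% of all genes were. Scaled on proteasome genes, these were 19 and 26, and the zygotic order was then the less frequent of the 2 among the members. The share of all genes in each order was not counted. The part of stage in these values was not tested. rheb, which encodes the GTPase that switches on mTOR, stood at 8.12, 23.1 and 17.6 FPKM in the MZ 7 hpf, MZ 4.3 hpf and wild-type libraries. mtor itself, its partners rptor and mlst8 and the downstream kinase genes rps6kb1a and rps6kb1b were within 2-fold in every pair. So were tsc1a and tsc2, while tsc1b was past it, at 20.4, 42.7 and 42.7 FPKM. gigyf1a, which encodes a relative of a mammalian 4EHP partner, stood at 7.08, 12.1 and 1.55 FPKM, while gigyf2 was within 2-fold in every pair. larp4ab, which encodes a poly(A)-associated La-related protein, stood at 8.75, 2.74 and 1.76 FPKM.

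Among the genes for mRNA-bound proteins, ybx1, which encodes a packaging protein of maternal mRNA, was the most abundant of the list on the mean of the libraries, at 879 FPKM in the MZ 7 hpf library, 329 in the MZ 4.3 hpf library and 529 in wild type. The poly(A)-binding protein gene pabpc1a stood at 455, 271 and 556 FPKM, its copy pabpc1b at 11.1, 9.39 and 3.28, and the egg form pabpc1l at 24.7, 33.6 and 57.5. The helicase gene ddx3xb stood at 187, 230 and 384 FPKM. serbp1a, which encodes a ribosome-bound protein, stood at 325, 151 and 240 FPKM, and cpeb1b, for a protein that steers poly(A) tail growth in the egg, at 4.60, 45.0 and 22.2.

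**Figure D4:**
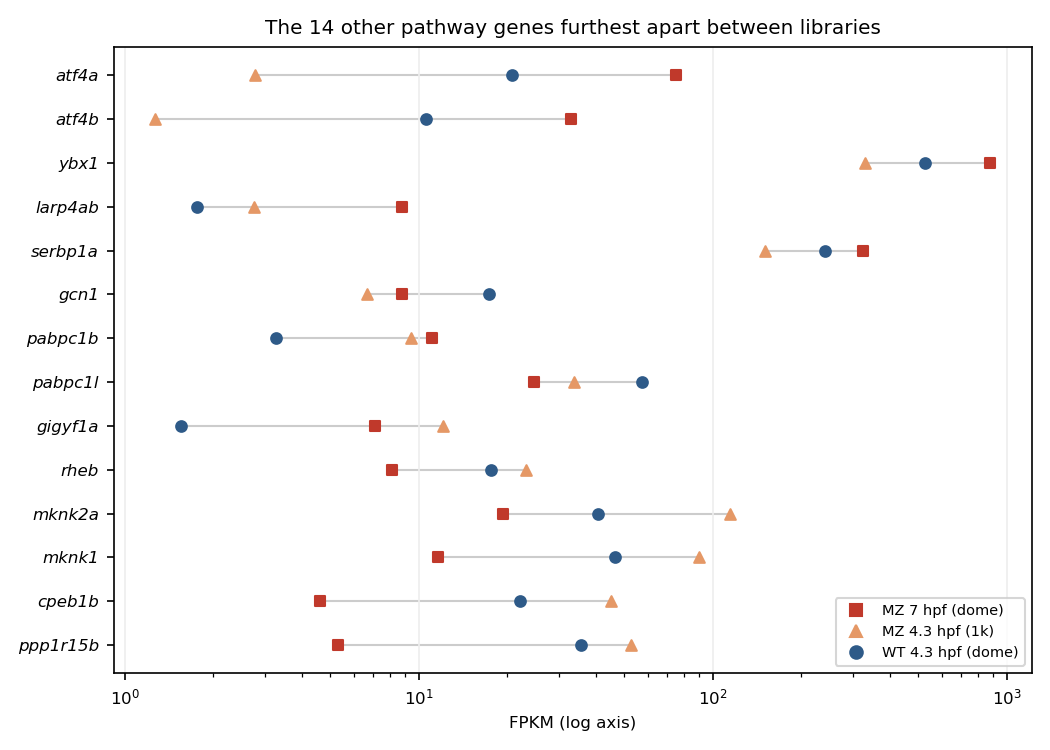
FPKM on a log axis of the 14 genes of the pathway list with the largest log2 ratio in any pair of libraries, with 1 symbol per library (square, MZ 7 hpf; triangle, MZ 4.3 hpf; circle, wild type 4.3 hpf), ordered by the ratio between the mutant libraries. atf4a, at 74.7, 2.77 and 20.8 FPKM, and ppp1r15b, at 5.31, 52.7 and 35.6 FPKM, stand at the ends.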

How the data were processed

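The authors deposited 1 table of FPKM, with a column per library, per the file headers, rounded to 0.01. Trimmomatic 0.36, Bowtie2 2.2.5, RSEM 1.2.8 and build GRCz11 are named, without their roles, per the submitters' processing notes. The sources used here do not state RNA selection, strand or the division of shared reads. Rows without values (1051) were left out. Ratios between libraries are log2((a + 1)/(b + 1)) of FPKM for the 14306 genes averaging 1 FPKM or more; counts are at 2-fold. With 1 library per group there was no test, and precision cannot be stated. Alternatives were pseudocounts of 0.1 and 5, no filter or a filter at 5 FPKM, 3 scalings (equal sums, median of ratios, proteasome genes), and thresholds of 1.5-fold and 4-fold. Genes of like level were added as a comparison after the data were seen. The scripts were tested on simulated data. Members and lists were chosen with earlier results of these data known. Genes named with full values are those at least 2-fold apart in any pair, the most abundant of each factor and families whose shares differ by at least 15 points; other members, being few, are given more briefly; of the pathway list, the 14 furthest apart and the 3 most abundant. RefSeq names came from assembly GRCz12tu, whose coordinates are not used. Software was Python 3.11.15 with pandas 2.3.3, numpy 2.4.6, matplotlib 3.10.9 and scipy 1.17.1.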

Additional observations from a re-analysis of the deposited data

How the results depend on the processing

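No paired analysis was possible because each group has 1 library and the result comes from no test. Median log2 ratios of the members kept their sign except on proteasome genes, where that for MZ 7 hpf over wild type became -0.23 and that between the mutants -0.10; by the median of ratios the median between the mutants was 0.51. For MZ 4.3 hpf over wild type, 2 members were higher with a pseudocount of 5, 2 higher and 10 lower by the median of ratios, 10 higher and 13 lower at 1.5-fold, and 0 higher and 2 lower at 4-fold. For MZ 7 hpf over wild type, 5 were higher and 10 lower on proteasome genes, 13 higher and 10 lower at 1.5-fold, and 1 higher and 1 lower at 4-fold. Between the mutants, 4 were higher on proteasome genes, 18 higher at 1.5-fold, and 2 higher and 0 lower at 4-fold. No member past 2-fold changed sign under the 3 scalings, but none could. Each scaling moves all ratios of a pair by nearly the same amount, here under 2-fold. Of the 64, 8, 22 and 22, all within 2-fold, changed sign for MZ 4.3 hpf over wild type, MZ 7 hpf over wild type and between the mutants. Ratios were counted for members past 2-fold in some pair and for the most abundant member of each factor. Each was counted once for each alternative pseudocount and scaling, so 1 ratio can count more than once. Of these entries, 19 lay under 2-fold in place of past it, 14 lay past it in place of under it, and 432 did neither. Other members were not counted, and some of them passed 2-fold under a scaling, such as eif4h for MZ 4.3 hpf over wild type by the median of ratios. Adding 1 FPKM to each copy moved all 108 shares by less than 5 points. The cause of these changes was not tested. Low members, such as eif2ak2, eif4a2 in the mutant at 4.3 hpf and eif3hb, are limited by an unknown depth.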
